A study of Mus musculus with 6 samples.

Results

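Intestinal epithelium genes were followed in RNA of the mouse stomach antrum, the distal part of the stomach next to the duodenum. The members were a fixed list of 10 genes of duodenal enterocytes and goblet cells, found on the array as every probe set whose annotated symbol was a member. Of these 10 genes, 8 had probe sets, 13 in all, out of 12393 genes with a probe set of a single symbol. Sis and Muc2 had no probe set with a single matching symbol and are not analysed here. The genes are those of tissue that can enter an antral sample at its duodenal border or can arise in it by intestinal metaplasia.

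Satin mice, a strain known for its mutation of the forkhead factor gene Foxq1, were compared with Beige mice, a strain known for its mutation of the lysosomal trafficking gene Lyst, and with C57/BL6 (BL6) mice. Beige and BL6 are titled as controls, and each of the 3 strains had 2 arrays, named here by strain and replicate number. The labels name no allele, sex, age, treatment or genetic background, so it is not known here whether the Satin mice also carry the Beige mutation. The design speaks of 2 mice of each strain, but the labels do not tie each array to an animal, and p-values cover only the spread between arrays, some of which may be technical. The question set was how the gastric cell lineages stand in relation to FOXQ1. All 11 gastric markers on the array were above the filter on dim genes on every array.

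Enterocytes absorb fat by re-esterifying it, loading it onto apolipoprotein B with the help of a microsomal transfer protein and exporting it as chylomicrons that also carry apolipoproteins A-I and A-IV. Their brush border is built on villin and holds enzymes that digest sugars and peptides, while goblet cells between them secrete mucus. The caudal homeobox factors CDX1 and CDX2 maintain the intestinal programme, and their appearance in gastric mucosa is a known mark of intestinal metaplasia.

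The promoter sequences of 4 measured members are shown to place the genes described below, and no relation between these sequences and the values was tested. Apoa1 and Apoa4 are neighbours in an apolipoprotein gene cluster, Apob was the member whose Satin arrays lay above all control arrays, and Lct held the only match to a CDX-type motif among the members measured. The sequences are RefSeq's for assembly GRCm38.p6, from 250 bases before to 50 bases after the transcription start and 5′ to 3′ along the gene. Apoa1 lies at chr9:46228380-46228679 on the plus strand, Apoa4 at chr9:46240594-46240893 on the plus strand, Apob at chr12:7977427-7977726 on the plus strand and Lct at chr1:128328269-128328568 on the minus strand. Capitals mark a match to one of the motifs searched.
Apoa1 promoter: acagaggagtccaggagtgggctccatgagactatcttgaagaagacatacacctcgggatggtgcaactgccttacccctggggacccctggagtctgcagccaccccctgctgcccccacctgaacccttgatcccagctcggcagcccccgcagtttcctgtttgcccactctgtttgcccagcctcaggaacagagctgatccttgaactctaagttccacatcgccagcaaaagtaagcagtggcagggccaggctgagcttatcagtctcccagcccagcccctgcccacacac
Apoa4 promoter: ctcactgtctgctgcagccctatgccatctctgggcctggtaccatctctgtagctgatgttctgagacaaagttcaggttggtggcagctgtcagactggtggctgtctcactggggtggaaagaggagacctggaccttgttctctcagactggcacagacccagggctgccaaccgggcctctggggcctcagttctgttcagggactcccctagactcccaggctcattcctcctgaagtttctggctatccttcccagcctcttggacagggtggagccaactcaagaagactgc
Apob promoter: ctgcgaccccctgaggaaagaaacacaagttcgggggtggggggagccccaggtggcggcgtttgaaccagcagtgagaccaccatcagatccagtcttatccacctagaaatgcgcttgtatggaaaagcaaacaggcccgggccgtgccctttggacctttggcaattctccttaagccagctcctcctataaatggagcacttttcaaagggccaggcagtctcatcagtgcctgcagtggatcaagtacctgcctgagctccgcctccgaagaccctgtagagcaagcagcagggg
Lct promoter: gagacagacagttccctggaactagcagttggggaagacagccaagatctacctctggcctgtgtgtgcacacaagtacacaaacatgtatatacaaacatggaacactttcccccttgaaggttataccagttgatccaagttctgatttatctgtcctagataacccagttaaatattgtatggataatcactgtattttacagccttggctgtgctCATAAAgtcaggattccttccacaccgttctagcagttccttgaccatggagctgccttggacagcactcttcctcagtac

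The table of promoters held 9 of the 10 members. The motifs were searched on both strands, and matches that overlap were counted. The CDX-type motif TTTATG matched in 2 of the 9, Lct and Sis, and in 11.9% of 32851 promoters of the same length. In Lct the match began 31 bases before the transcription start, on the opposite strand. TTTATT, a second CDX-type motif, matched in Sis only and in 19.6% of all promoters. The HNF4-type motifs CAAAGTCCA and CAAAGGTCA, and the palindromic HNF1-type motif, matched in none of the 9 members. They were found in 0.475%, 0.478% and 0.00913% of all promoters. A match is a description of these letters only.

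The deposited values are linear signals, and they are given below as log2(signal + 32) after quantile normalization, unless called deposited signals. Median deposited signals were 74.15 and 58.6 in Satin, 49.5 and 49 in Beige and 47.6 and 38.2 in BL6, so every difference is relative to the bulk of genes. BL6 replicate 1 stood apart in the Gapdh ratio, the signal at the 5′ end of that transcript over the signal at its 3′ end, at 0.526 beside 0.988 to 1.18 elsewhere. Brightness depends on the probes, so values are compared between arrays and not between genes.

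None of the 6 members tested was called in Satin against both controls, taken as the mean of Beige and BL6, with limma at an adjusted p under 0.05, and 1 had an unadjusted p under 0.05. Over all 9395 genes tested 1.44% were called, 41 higher and 94 lower in Satin, and 1180 genes had an unadjusted p under 0.05. With the arrays as deposited the calls were 1469 higher and 62 lower, with median centring 46 and 46, and scaled to the hybridization controls 2210 and 61. Differences of the 6 members ran from -0.46 to 0.84, with a median of -0.19, beside a median of 0.00 over all genes. The other members with a probe set, Cdx1 and Mttp, lay below the filter on dim genes, set at 5.74, and were not tested. For none of the 6 could fewer cells of a type be told apart from less RNA per cell. The plot of the members by array shows that the 2 arrays of a strain often lay further apart than the strain means.

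**Figure D1:**
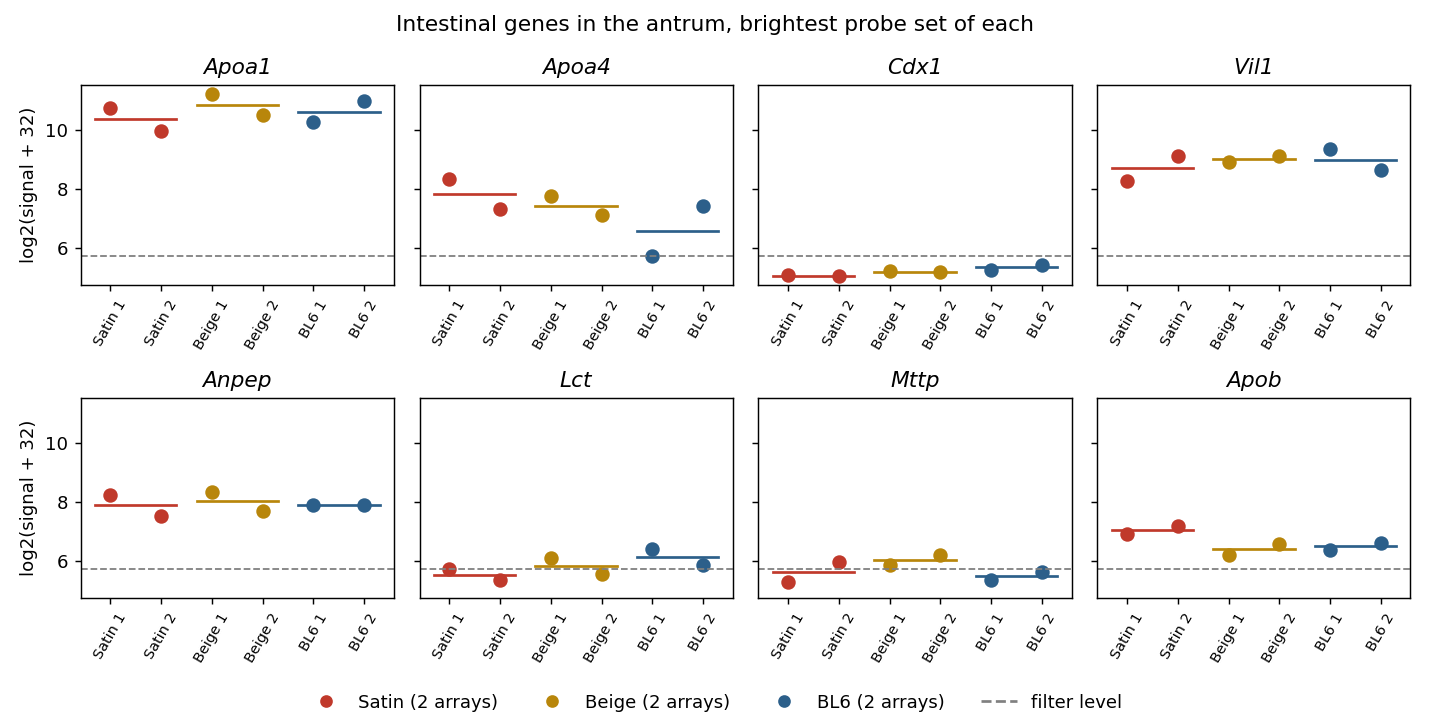
Each panel shows log2(signal + 32) of a member on the 6 arrays, with points for arrays, lines for strain means and a dashed line at the filter level of 5.74. Cdx1 lies below the dashed line on all arrays, and both Satin arrays of Apob lie above all 4 control arrays.

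Apoa1 encodes apolipoprotein A-I, the main protein of high density lipoprotein, made by enterocytes and hepatocytes. Its brightest probe set had 10.76 and 9.97 in Satin, 11.22 and 10.51 in Beige and 10.27 and 10.99 in BL6. The strains overlapped, with Satin replicate 2 lowest and Beige replicate 1 highest. Strain means were 10.37 ± 0.56 in Satin, 10.87 ± 0.51 in Beige and 10.63 ± 0.50 in BL6 (SD, n = 2 each). Satin minus both controls was -0.38 (SE 0.29, 95% interval -1.03 to 0.26), which did not pass the test (limma, adjusted p = 0.66). On a fold scale that interval ran from 0.49 to 1.20.

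The 4 probe sets of Apoa1 moved together across the arrays, with correlations of 0.838 to 0.998 between pairs over the 6 arrays. Their suffixes a_at and x_at mark probe sets that can detect several transcripts of a gene or related sequences. On each of the 4 probe sets Satin replicate 1 was brighter than Satin replicate 2, by deposited signals of 1376 and 709 on 1 of them. Tested by themselves, the 4 differed between Satin and both controls by -0.39 to 0.01 (limma, adjusted p 0.68 to 0.997). Deposited signals of the brightest were 2148 and 1187 in Satin, 2149 and 1592 in Beige and 922 and 1766 in BL6. Within each strain the 2 arrays thus lay further apart than the mean of Satin from the mean of both controls.

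Apoa4 encodes apolipoprotein A-IV, secreted on chylomicrons after fat intake. Its brighter probe set had 8.36 and 7.31 in Satin, 7.75 and 7.11 in Beige and 5.72 and 7.42 in BL6. Satin replicate 1 was highest and BL6 replicate 1, the array with the low Gapdh ratio, was lowest, just under the filter level. The difference between Satin and both controls was 0.84 (SE 0.46, 95% interval -0.19 to 1.86) and did not pass (limma, adjusted p = 0.511). Without BL6 replicate 1 it was 0.42 (adjusted p = 0.679), without BL6 replicate 2 it was 1.27 (0.0898), and with the Gapdh ratio as a covariate it was -0.043 (0.982). Without Satin replicate 1 it was 0.31 (0.999), and without Satin replicate 2 it was 1.34 (0.416). The part of RNA quality in this difference was not tested further.

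The dimmer Apoa4 probe set had 6.85 and 6.63 in Satin, 6.52 and 6.25 in Beige and 5.64 and 6.81 in BL6. It followed the brighter one over the arrays (r = 0.91, n = 6 arrays) and gave a smaller difference of 0.43 (SE 0.33, adjusted p = 0.685). Over the 6 arrays Apoa4 and Apoa1 correlated at 0.50, and both were higher on Satin replicate 1 than on Satin replicate 2.

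**Figure D2:**
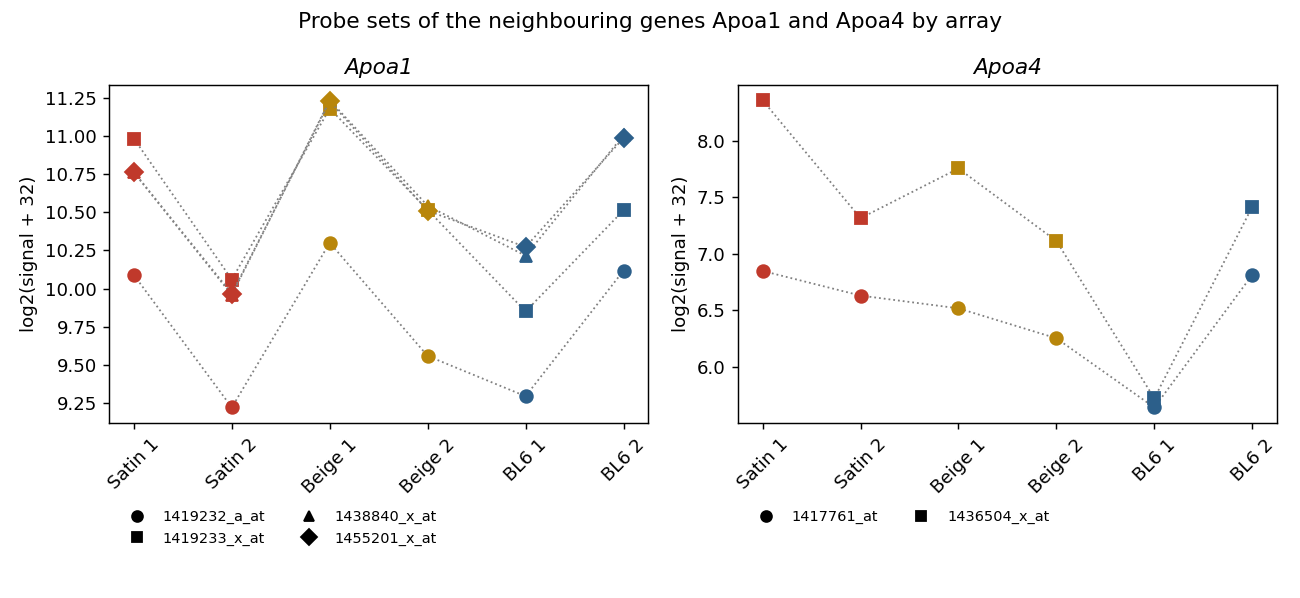
Points show log2(signal + 32) of each probe set of Apoa1 (left) and Apoa4 (right) on the 6 arrays, with dotted lines joining a probe set. The 4 Apoa1 probe sets keep the same order of Satin replicate 1 above Satin replicate 2, and both Apoa4 probe sets are lowest on BL6 replicate 1.

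Apob encodes apolipoprotein B, the scaffold of chylomicrons. Its single probe set had 6.92 and 7.18 in Satin, 6.21 and 6.57 in Beige and 6.38 and 6.61 in BL6. Both Satin arrays lay above all 4 control arrays, a pattern that 10.9% of the genes tested showed, and 23.7% had both Satin arrays outside the range of the controls on either side. Strain means were 7.05 ± 0.18 in Satin, 6.39 ± 0.25 in Beige and 6.50 ± 0.16 in BL6 (SD, n = 2 each). The difference from both controls was 0.60 (SE 0.23, 95% interval 0.08 to 1.12, 1.52-fold), with an unadjusted p of 0.0277, and it was not called (limma, adjusted p = 0.305). Deposited signals were 125 and 137 in Satin, 41.2 and 60.8 in Beige and 47.0 and 49.1 in BL6.

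The scaling between arrays decided whether Apob and Apoa4 were called. With the arrays as deposited, Apob differed by 1.00 (adjusted p = 0.0178) and Apoa4 by 1.29 (0.0219), so 2 of 6 members were called. In that setting the median of all genes was itself 0.43 higher in Satin. Scaled to the hybridization controls, Apob differed by 1.04 (0.0139) and Apoa4 by 1.33 (0.0163), beside a median of 0.47 for all genes. Both differences relative to all genes thus stayed near those of the quantile normalized values.

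Mttp encodes the large subunit of the microsomal transfer protein that loads lipid onto apolipoprotein B. Its brighter probe set had deposited signals of 9.3 and 32.5 in Satin, 26.6 and 37.3 in Beige and 7.2 and 12.4 in BL6. These lay between percentiles 15.9 and 43.6 of all probe sets on their arrays, so the gene was dim in each strain. The second probe set was also dim, from 0.8 to 43.2, and followed the first weakly (r = 0.32, n = 6 arrays). With no filter the difference between Satin and both controls was -0.14 (SE 0.27, adjusted p = 0.915).

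Vil1 encodes villin, the actin bundling protein of microvilli, which gastric surface and gland cells also make at a lower level. It had 8.27 and 9.12 in Satin, 8.93 and 9.13 in Beige and 9.35 and 8.64 in BL6. Satin replicate 1 was lowest, and Satin replicate 2 lay among the control arrays. The difference from both controls was -0.31 (SE 0.26, 95% interval -0.91 to 0.28, or 0.53 to 1.21 as a fold), which did not pass (limma, adjusted p = 0.705). Without Satin replicate 1 it was 0.11 (0.999), and without Satin replicate 2 it was -0.74 (0.400).

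Anpep encodes aminopeptidase N, a brush border peptidase that myeloid cells and fibroblasts carry too. Its values were 8.24 and 7.53 in Satin, 8.34 and 7.70 in Beige and 7.91 and 7.89 in BL6. The strains overlapped, and the difference between Satin and both controls was -0.07 (SE 0.25, 95% interval -0.63 to 0.48, adjusted p = 0.943). Of the 8 macrophage markers tested beside it none was called (limma), with 3 above 0 and 5 below. Mrc1 and Csf1r differed by -0.57 (adjusted p = 0.225) and -0.33 (0.461), and Cd14 and Cd68 by 0.38 (0.607) and 0.28 (0.704). Summed normalized signals of the 9 macrophage and monocyte markers on the array were 1222 and 1647 in Satin, 1790 and 1876 in Beige and 1727 and 1284 in BL6. Their part in the Anpep values was not tested.

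Lct encodes lactase, the disaccharidase of the suckling and adult duodenum and jejunum, and it is the gene whose promoter held the TTTATG match shown above. It had 5.71 and 5.35 in Satin, 6.11 and 5.56 in Beige and 6.41 and 5.88 in BL6, around the filter level. Deposited signals were 30 and 10.9 in Satin, 36.5 and 14.1 in Beige and 48.3 and 19.1 in BL6, so replicate 2 was the dimmer array in each strain. The difference from both controls was -0.46 (SE 0.33, 95% interval -1.20 to 0.29, adjusted p = 0.653). Values this dim understate a change.

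Cdx1, the intestinal homeobox gene, was near the bottom of the range in every sample. Its deposited signals were 2.6 and 0.9 in Satin, 4.6 and 4.1 in Beige and 5.2 and 8.6 in BL6. These were between percentiles 1.18 and 20.8 of all probe sets on their arrays, with the lowest values in Satin. Among the genes tested, which leave out Cdx1, 12.7% had both Satin arrays below all 4 control arrays. Without a filter the difference was -0.21 (SE 0.15, adjusted p = 0.732). Cdx2, its paralogue, named after its values were seen, was below the filter on both of its probe sets, with deposited signals of 7.9 and 5.3 in Satin, 4.8 and 5.8 in Beige and 8.1 and 6.9 in BL6 on the one used for the gene. No detection call was used here, so a low signal shows a dim probe set and not the absence of the transcript.

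With the control strains taken singly, 0 of the 6 members were called by limma in Satin against Beige or in Satin against BL6, where 0.894% and 0.745% of all genes were, and 1 member had an unadjusted p under 0.05 in each. These comparisons share the Satin arrays. Against Beige the member differences ran from -0.50 to 0.65 and against BL6 from -0.61 to 1.27, with medians of -0.22 and -0.14. Apob differed by 0.65 (SE 0.27, adjusted p = 0.43) against Beige and by 0.55 (SE 0.27, adjusted p = 0.445) against BL6. Apoa4 differed by 0.40 (SE 0.53, adjusted p = 0.857) against Beige and by 1.27 (SE 0.53, adjusted p = 0.367) against BL6. The last value rests on BL6 replicate 1, since it was 0.43 without that array and 2.14 without BL6 replicate 2.

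Between the control strains, Beige against BL6, 0 of 6 members and 0% of all genes were called by limma, and no member had an unadjusted p under 0.05. Member differences ran from -0.31 in Lct to 0.87 in Apoa4, with a median of 0.08. Without BL6 replicate 1 the Apoa4 difference was 0.02, and without BL6 replicate 2 it was 1.74. The plot of differences shows that the 95% intervals of all members but Apob and Apoa4 reached across 0 in each comparison.

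**Figure D3:**
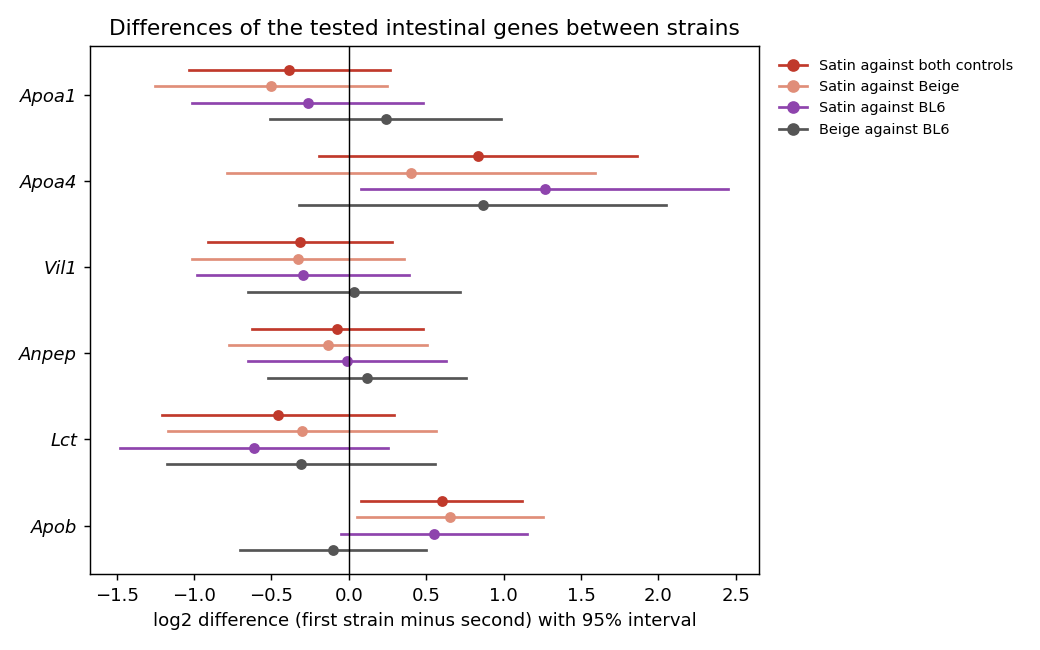
Points are log2 differences, first strain minus second, of the 6 members tested in 4 comparisons, and bars are 95% intervals of the limma fit. Most intervals cross 0, while those of Apob against both controls and against Beige, and of Apoa4 against BL6, lie above it with adjusted p of 0.305, 0.43 and 0.367.

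The members did not rise and fall as a group across the 6 arrays. Of the 15 pairs among the 6 members, Apoa1 and Anpep correlated highest, at 0.79, and Apoa4 and Vil1 lowest, at -0.83. Vil1 also ran against Apoa1 (-0.55) and Anpep (-0.54), and Lct against Apob (-0.81). The points share 3 strains and 1 normalization, and the values are descriptions of 6 arrays. The mean centred profile of the 6 members was 0.17 and -0.13 in Satin, 0.22 and -0.11 in Beige and -0.20 and 0.03 in BL6. Among 1130 other genes with an SD of at least 0.5, those most like this mean were Msgn1, Lage3, Kcna4, Fbxl15, Fam151a and Fosl1, with r of 0.91 to 0.97 over 6 arrays.

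Likeness was also looked up for single members, a choice made after their values were seen. Nearest to Apoa1 were Fabp3 (r = 0.96), a fatty acid binding protein gene, and Sst (r = 0.96), the somatostatin gene of antral D cells. Nearest to Apoa4 were Sf3b3, Prss22 and Rhobtb2 (each r = 0.98). Atp4a, the proton pump gene of parietal cells, came after them (r = 0.97), and Vil1 ran against Atp4a (r = -0.90). With 6 arrays and 1130 genes such values are descriptions only.

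Other genes of the intestinal programme were read from lists of the same cells. Which cells of the antrum made their RNA was not tested, so a fall of a listed gene does not show a loss of enterocytes. Of 18 tested genes of fat absorption and chylomicrons, 2 fell in Satin against both controls, 0 rose and 16 did not pass, and the median was -0.10. Fabp2, which encodes the intestinal fatty acid binding protein, had 6.28 and 6.66 in Satin, 11.22 and 11.11 in Beige and 11.33 and 10.70 in BL6, and fell by 4.62 (limma, adjusted p = 4.8e-06). Rbp2, a retinol binding protein gene of enterocytes, had 7.58 and 8.12 in Satin, 9.12 and 9.05 in Beige and 8.57 and 9.32 in BL6, and fell by 1.16 (adjusted p = 0.0473). Apoc3, which lies between Apoa1 and Apoa4 in the gene cluster, had 6.45 and 7.51 in Satin, 5.12 and 5.64 in Beige and 5.61 and 5.23 in BL6. Its difference of 1.58 was not called (adjusted p = 0.0827), although both Satin arrays lay above the controls. No test compared the neighbouring genes with each other.

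Of 11 tested genes of enterocyte digestion and uptake, 1 fell, 1 rose and 9 did not pass (median 0.24). Ces2a, a carboxylesterase gene, had 6.86 and 7.35 in Satin, 8.48 and 8.05 in Beige and 8.22 and 8.56 in BL6 and fell by 1.23 (adjusted p = 0.0264). Cyp2b10, a cytochrome P450 gene induced by xenobiotics in liver, had 7.35 and 7.58 in Satin, 6.17 and 6.67 in Beige and 6.02 and 6.03 in BL6 and rose by 1.24 (adjusted p = 0.0376). Of 9 brush border genes, Krt20, a keratin gene of differentiated intestinal and gastric surface cells, fell, with 9.37 and 9.84 in Satin, 11.35 and 11.26 in Beige and 11.54 and 10.84 in BL6 (-1.64, adjusted p = 0.00702). The other 8 did not pass, and the brush border median was -0.24. Of 7 intestinal transcription factor genes none was called, with Klf5 (0.38, adjusted p = 0.28) and Gata4 (0.31, 0.463) having the smallest p and a list median of -0.09.

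Most of these calls were lost when an array was left out, while the differences kept their direction. Fabp2 was called under each of the 6 omissions of an array. Rbp2, Krt20, Ces2a and Cyp2b10 were lost without Beige replicate 1 (limma, adjusted p = 0.221, 0.086, 0.155 and 0.143), without Beige replicate 2 (0.19, 0.0665, 0.0791 and 0.0703) and without Satin replicate 1 (0.44, 0.061, 0.306 and 0.28). Across the 6 omissions the differences ran from -1.42 to -0.89 in Rbp2, -1.88 to -1.43 in Krt20, -1.45 to -0.97 in Ces2a and 1.09 to 1.34 in Cyp2b10, so a lost call does not show that 1 array carried the difference. Cyp2b10 was lost as well without BL6 replicate 1 (0.0538) and Satin replicate 2 (0.323). The Gapdh ratio as a covariate ended the calls of Ces2a (0.0601) and Cyp2b10 (0.134), with differences of -1.40 and 1.26 that were no smaller than without it. Among all 19 other settings the call was lost in 12 for Rbp2, 4 for Krt20, 7 for Ces2a and 9 for Cyp2b10.

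Several goblet cell genes, but not all, were lower on Satin replicate 1 than on Satin replicate 2. Of the 12 on the array, 7 were lower there by more than 1 on the log2 scale and none was higher by as much, and Satin replicate 1 was the lowest of the 6 arrays for 9. For these counts, and those of liver and pancreatic markers below, the share among all genes is not given here. They only describe the lists. None of 9 tested was called against both controls (limma), and the list median was -0.35. Spdef and Agr2, which had the smallest p, differed by 0.49 (adjusted p = 0.262) and -0.35 (0.294), and their Satin arrays were close, at 8.14 and 8.41 for Spdef and 11.67 and 11.75 for Agr2. Atoh1, the transcription factor gene of secretory cells, was higher on Satin replicate 1, with 6.12 and 5.84 in Satin. Zg16, a lectin gene of goblet granules, had 6.55 and 11.46 in Satin, 11.41 and 11.28 in Beige and 11.10 and 12.73 in BL6. Satin replicate 1 was the low array, and Fcgbp, a mucus protein gene, repeated this with 6.74 and 10.42 in Satin, 10.70 and 10.24 in Beige and 10.28 and 10.82 in BL6. Clca1, a further goblet mucus protein gene, had 8.69 and 11.58 in Satin, against 11.47 to 11.71 on the Beige arrays and 11.70 and 11.48 in BL6.

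Summed normalized signals of the 12 goblet markers on the array were 4681 and 13700 in Satin, 14032 and 12865 in Beige and 13183 and 17370 in BL6, to which the brightest genes add most. Zg16 was highest on BL6 replicate 2 (12.73), where the pancreatic gene Cpa1 was highest too (12.92). In Beige, Zg16 had 11.41 and 11.28 where Cpa1 had 5.09 and 9.92. The part of pancreatic tissue in the goblet sums was not tested. The part of the low goblet signals in the Vil1 value of Satin replicate 1 was not tested. Over the 6 arrays Vil1 correlated with Clca1 at 0.81, Fcgbp at 0.70, Spink4, a further goblet marker, at 0.69 and Zg16 at 0.62. Without Satin replicate 1 the differences of Zg16, Fcgbp and Clca1 were -0.18, -0.087 and -0.0023. Without Satin replicate 2 they were -5.06, -3.74 and -2.91. Each of these fits leaves 1 Satin array, so the spread within Satin cannot be estimated, and the values only describe the 2 arrays. Zg16, Fcgbp, Clca1, Spink4, Atoh1, Apoc3, Cd14, Cd68 and the further markers below were chosen after their values were seen.

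Markers of organs beside the antrum differed between arrays too. Alb, the albumin gene of hepatocytes, had 6.50 and 10.61 in Satin, 6.32 and 6.32 in Beige and 5.20 and 6.23 in BL6, high on Satin replicate 2. Apoa2, an apolipoprotein gene of liver, had 5.34 and 8.57 in Satin, 5.27 and 5.24 in Beige and 6.17 and 5.93 in BL6. Satin replicate 2 was the highest of the 6 arrays for 8 of the 10 liver markers on the array, the exceptions being Ttr, with 9.99 and 10.23 in Satin below all controls, and Hpx, with 5.06 and 7.33 in Satin and 7.34 on BL6 replicate 2. None of 7 tested liver markers was called (limma), and the summed normalized signals of the 10 on the array were 1208 and 3854 in Satin, 1923 and 1819 in Beige and 2132 and 1721 in BL6. Apoa1, which hepatocytes also make, was lower on Satin replicate 2 than on Satin replicate 1, while Apob was 7.18 and 6.92 on these arrays. Over the 6 arrays Apob correlated with Alb at 0.79 and with Apoa2 at 0.67, and Apoa1 with the same genes at -0.55 and -0.75. Apob ran closer to Apoc3, at 0.91, and against Muc5ac and Fabp2, both called lower in Satin, at -0.90 and -0.89. The part of liver tissue in the Apob values was not tested. Without Satin replicate 1 the Alb difference was 4.58, and without Satin replicate 2 it was 0.47. Each of these fits leaves 1 Satin array, so they only describe the 2 arrays.

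Cpa1, a carboxypeptidase gene of pancreatic acinar cells, had 5.34 and 12.11 in Satin, 5.09 and 9.92 in Beige and 5.14 and 12.92 in BL6. Replicate 2 was the array with high Cpa1 in each strain, and summed normalized signals of 10 pancreatic markers were 11403 and 45967 in Satin, 12400 and 19622 in Beige and 12298 and 78360 in BL6. Replicate 2 was above replicate 1 in each strain for 9 of the 10. The exception was Clps, the colipase gene, which lay at 13.15 to 13.27 on all arrays, near the top of the range. Without Clps the sums of the other 9 were 1586 and 36900 in Satin, 2767 and 9990 in Beige and 2835 and 68729 in BL6. None of the 10 was called between Satin and both controls (limma), and Cela1 had the smallest p (-0.60, adjusted p = 0.752). Of 3 tested Paneth cell genes none was called, with Itln1 at 2.16 (adjusted p = 0.0597) and Lyz1 at -0.21 (0.808). Muc5ac, the surface mucin gene of the stomach itself, fell by 4.35 (adjusted p = 1.3e-06) and was the only call among 11 gastric markers, and their summed signals were 68937 and 59627 in Satin, 71080 and 66553 in Beige and 63676 and 61368 in BL6, with Satin overlapping each control strain. Of these 11, Tff1, Tff2, Gkn1, Gkn2 and Pgc lay at 12.82 to 13.29 on all arrays, near the top of the range, where an array may not register a difference, so neither the lack of further calls nor the sums show that gastric genes were alike. The part of admixed tissue in the values of the members was not tested.

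**Figure D4:**
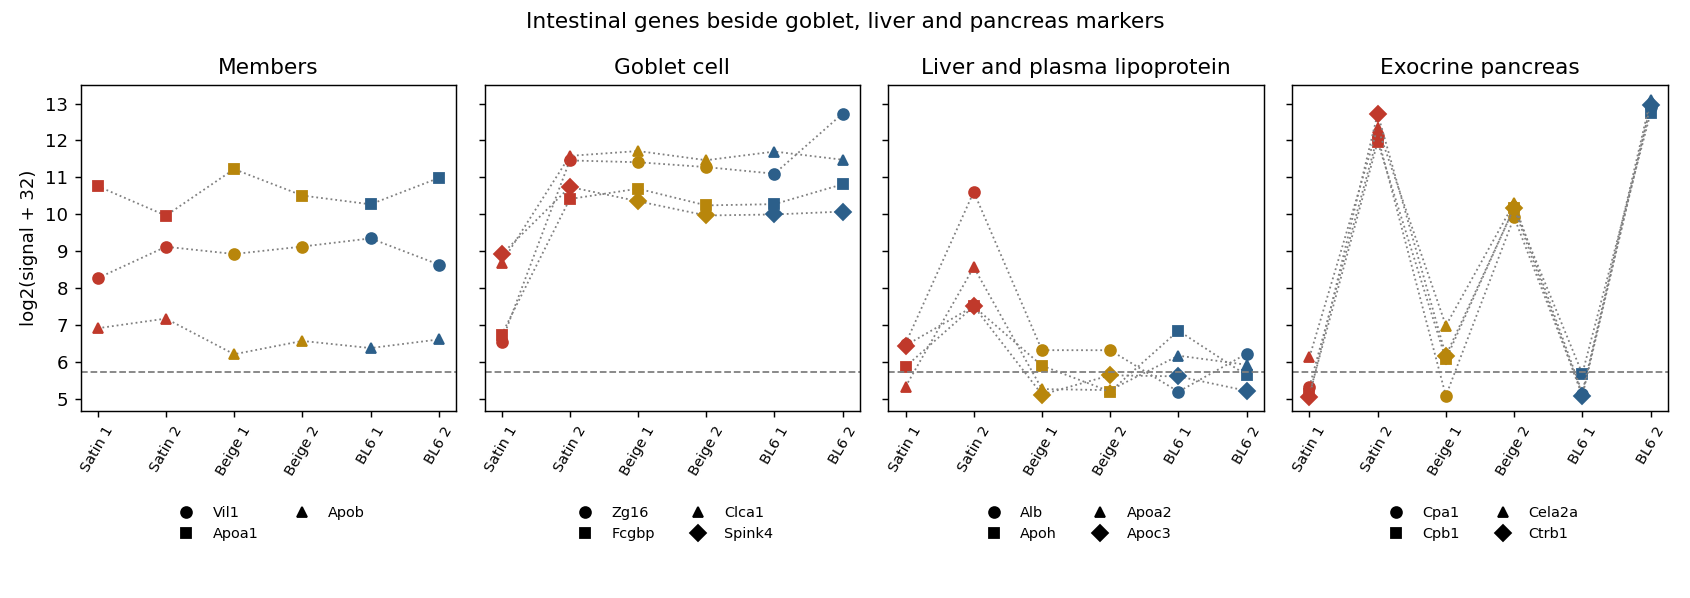
Points show log2(signal + 32) on the 6 arrays for 3 members, 4 goblet markers, 4 liver and plasma lipoprotein genes and 4 pancreatic genes, with a dashed line at the filter level. The genes shown were chosen after their values were seen: these 4 goblet genes are low on Satin replicate 1, Alb, Apoh and Apoa2 are highest on Satin replicate 2, and these 4 pancreatic genes are high on replicate 2 of each strain.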

How the data were processed

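The authors deposited linear signal intensity values, 1 per probe set and array, for 6 Affymetrix arrays of Trizol-extracted, biotin-labelled antral RNA, per the labels. Which signal algorithm and scaling were used is not given in the sources used here. Strain and replicate came from the titles. Of 22690 probe sets, 64 controls were left out, 20380 others carried a single symbol, 691 several and 1555 none. Signals were taken as log2(signal + 32), quantile normalized, reduced to the brightest probe set of each gene and filtered at the lowest 30% (5.74), which left 9395 genes. Strains were compared in 1 limma 3.58.1 fit in R 4.3.3 (lmFit, eBayes with trend, two-sided, 3 residual degrees of freedom, Benjamini-Hochberg over all genes tested, called under 0.05). Intervals are 95% intervals of that fit. The number of arrays limits the precision.

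The members, the 10 other lists and the tests were chosen with earlier results of these data known. Of the 139 other list genes 114 were on the array and 93 were tested. Named were all members, the called genes of each list in Satin against both controls (up to 4, or else the 2 with the smallest p), the 6 genes most like the members' mean profile, and Alb, Cpa1, Csf1r and Muc5ac. The fit was tested on simulated data. Other scalings, pseudocounts, filters, probe set rules, variance models, sample choices, a replicate block, a Gapdh covariate and the omission of each array were tried.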

Additional observations from a re-analysis of the deposited data

How the results depend on the processing

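The count of members called was 0 in each of the 4 comparisons and moved to 2, Apob and Apoa4, in Satin against both controls and in Satin against BL6 with the arrays as deposited and with scaling to the hybridization controls. The other 17 and 18 settings gave 0 in these comparisons, and all 20 gave 0 in Satin against Beige and in Beige against BL6. In those scalings the median difference over all genes was itself above 0 in Satin against both controls, although some genes were lower in Satin. The median difference of the members against both controls was 0.34 as deposited and 0.38 with the hybridization controls, and against BL6 it was 0.50 and 0.60. With an array left out it ran from -0.24 to 0.15 against both controls, from -0.33 to 0.08 against Beige, from -0.14 to 0.24 against BL6 and from -0.02 to 0.20 for Beige against BL6. The cause was not tested.

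For the members and the uncalled list genes followed through the settings, named below, signs of differences against both controls turned as follows. As deposited, Apoa1 was 0.054, Vil1 0.23, Anpep 0.44, Spink4 0.24 and Agr2 0.020, and with the hybridization controls they were 0.10, 0.28, 0.48, 0.29 and 0.072. Anpep was 0.11 with median centring, Agr2 was 0.090 with the mean of probe sets, and Vil1 was 0.057 and Apoa4 -0.043 with the Gapdh covariate. With that covariate Apoa4 was -0.016 against Beige, -0.071 against BL6 and -0.056 for Beige against BL6. Apob in Beige against BL6 was 0.042 as deposited and 0.12 with the hybridization controls, against -0.10. With an array left out, the differences against both controls ran from -0.80 to 0.014 in Apoa1, -0.74 to 0.11 in Vil1 and -0.43 to 0.28 in Anpep, from -0.12 to 0.91 in Apoa4 against Beige and from -0.28 to 0.078 in Apob for Beige against BL6. Spink4 ran from -1.18 to 0.65 and Agr2 from -0.39 to -0.30 against both controls.

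The number of all genes called against both controls, 135, ran from 29 to 293 with an array left out and from 36 without the trend to 2271 with the hybridization controls. Against Beige, where it was 84, it ran from 9 to 191, and against BL6, where it was 70, from 12 to 3023. For Beige against BL6, where it was 0, it ran from 0 to 9. The replicate number as a block left 0 members called in each comparison, with Apob at an adjusted p = 0.302 and Apoa4 at 0.537 against both controls. Replicate 2 minus replicate 1 correlated between strains at 0.19 (Satin and Beige), 0.27 (Satin and BL6) and 0.12 (Beige and BL6) across genes, and the titles give no shared litter, batch or day. Dim members, Cdx1, Mttp and Lct, lie where signal over background limits what can be seen. Of the uncalled list genes named, only Zg16, Fcgbp, Clca1, Spink4, Apoc3, Apoa2, Alb, Itln1, Spdef, Agr2, Klf5 and Gata4 were followed through the settings. Of these, 7 were called against both controls (limma) as deposited and with the hybridization controls: Itln1 (adjusted p = 0.00064 and 0.0017), Apoc3 (0.003 and 0.0042), Alb (0.0051 and 0.008), Spdef (0.008 and 0.0052), Klf5 (0.0109 and 0.0044), Gata4 (0.0216 and 0.0086) and Zg16 (0.0408 and 0.0489). Of the 7 all but Zg16 were higher in Satin, as were most of all genes called in these scalings, 2271 of them with the hybridization controls. Itln1 and Apoc3 were also called with the robust option (0.0265 and 0.0448), and Itln1 with median centring (0.0474).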
